A study of Mus musculus with 132 samples.

Results

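Open chromatin sites were examined that were called in CD41+ hematopoietic progenitor cells (HPCs) but not in Flk1+ mesoderm, that carried no CTCF peak and that lay away from gene starts. A peak of the wild-type HPC ATAC-seq list was counted when it shared no base with the wild-type mesoderm ATAC-seq list or with the CTCF list of 416B cells, and when its midpoint was over 5 kb from every gene start of the count table. Of 29037 HPC peaks, 8888 had no mesoderm peak, 8112 of those had no CTCF peak and 6825 (23.5% of the list) were also distal. These 6825 are called progenitor-only distal sites here, and their nearest genes were followed in RNA without poly(A) tails, a fraction that holds nascent RNA.

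All cells except 416B derive from mouse 129/Ola E14-TG2a embryonic stem cells (mESCs), which were kept undifferentiated (day 0) or differentiated with BMP4, Activin A, bFGF, SCF and VEGF and sorted as Flk1+ mesoderm (day 4) or CD41+ HPCs (day 7). RNA was measured in wild-type cells (2 undifferentiated, 3 mesoderm and 4 HPC libraries), in P1-CTCF-KO clones (3 mesoderm and 3 HPC libraries) and in P2-CTCF-KO clones (3 and 5). The 5 come from 3 clones, with D10.1 and D2.1 each giving 2 HPC libraries. The knockouts lack the CTCF site next to the distal (P1) or proximal (P2) promoter of Runx1 and are single-cell clones. The undifferentiated libraries are labelled technical replicates and are the only ones of these 23 depleted of ribosomal RNA, so day 0 cannot be told apart from that preparation. ATAC-seq peaks were called on merged reads of 2 HPC and 4 mesoderm libraries, so a peak has no replicate of its own. The lists were unequal, with 76766 mesoderm and 29037 HPC peaks. With the 2 lists exchanged, the same rule gave 36421 mesoderm-only distal sites. The part of list size in which sites count as open in 1 stage only was not tested. The Methods give the ATAC-seq line as E14-TG2a with Runx1-Venus and a Runx1 +23 enhancer transgene, although the labels say E14-TG2a. CTCF was mapped in 416B, an immortalised mouse myeloid progenitor line, and CTCF in the HPCs themselves was not analysed here. Deposited totals ran from 7805102 to 24406998 counts per library, but 3 rows took 33.4% to 70.7% of them. The 2421 tested nearest genes that each held under 0.1% of every library had 78966 (wild-type mesoderm, clone C6.1) to 1535340 counts per library. In wild-type mesoderm, clone B9.3 stood apart with 323 summed CPM over 26 endothelial genes against 72.5 and 77.3, and the B9.3 HPC library had 264 summed CPM over 10 fibroblast genes against 8.97 to 30.2. CPM here are counts scaled to a common library size with TMM factors, and they are comparable within 1 fit only. The scaling was uneven in the wild-type fit. Undifferentiated libraries with totals of 24283287 and 20532578 had scaled sizes of 135560955 and 75236244. Mesoderm C6.1, with a total of 21634629, had 6108157. The part of this scaling in the day 0 levels was not tested.

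Distal open sites include enhancers, which bind transcription factors and can act on promoters far along the chromosome. Blood progenitors arise from mesoderm through hemogenic endothelium under factors of the RUNX, GATA, ETS and E-box binding families, among them Runx1, Gata2, the ETS proteins Fli1 and Erg, and Tal1 with its partner Lmo2. PU.1 is an ETS protein of myeloid cells, and CTCF marks many boundaries of chromatin domains.

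The sequences of 8 sites next to hematopoietic transcription factor genes are shown because the motif counts below are made of such matches. For 12 genes of that list, the widest site of at most 300 bp was chosen, and 7 of the 12 held a GATA, RUNX or ETS match on either strand, in capitals below. The letters of GATA factors were taken as AGATAA and, as the other form, TGATAA. Those of RUNX factors were taken as TGTGGT and, as the other form, TGCGGT. For ETS factors the search used CGGAAG and, as the other form, AGGAAG. The sites of Tal1, Erg, Meis1, Cbfa2t3 and Runx1 held none. The Runx1 site is printed because Runx1 is the gene of the study. Coordinates are mm9 and the plus strand is given 5′ to 3′, from the NCBIM37 reference. They lie at chr16:92787369-92787515 (Runx1 intron), chr2:103785225-103785291 (12.9 kb upstream of Lmo2), chr1:69554178-69554286 (178 kb downstream of the Ikzf2 start), chr6:133947991-133948260 (37.6 kb upstream of Etv6), chr8:124837488-124837564 (Zfpm1 intron), chr11:24126902-24127015 (149 kb downstream of the Bcl11a start), chr11:90226299-90226465 (Hlf intron) and chr16:87661463-87661677 (37.6 kb upstream of Bach1).
Runx1: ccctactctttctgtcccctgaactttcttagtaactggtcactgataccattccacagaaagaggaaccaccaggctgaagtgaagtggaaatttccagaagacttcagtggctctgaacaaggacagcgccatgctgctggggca
Lmo2: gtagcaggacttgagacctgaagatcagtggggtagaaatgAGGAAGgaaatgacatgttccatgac
Ikzf2: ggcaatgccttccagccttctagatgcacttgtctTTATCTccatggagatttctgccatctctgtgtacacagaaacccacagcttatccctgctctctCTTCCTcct
Etv6: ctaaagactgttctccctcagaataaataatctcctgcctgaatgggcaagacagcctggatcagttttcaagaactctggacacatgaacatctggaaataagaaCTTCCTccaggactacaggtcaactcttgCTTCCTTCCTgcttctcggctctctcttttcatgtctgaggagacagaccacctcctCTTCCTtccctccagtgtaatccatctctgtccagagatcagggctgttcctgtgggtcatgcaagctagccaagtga
Zfpm1: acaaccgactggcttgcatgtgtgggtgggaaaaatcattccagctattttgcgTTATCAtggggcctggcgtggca
Bcl11a: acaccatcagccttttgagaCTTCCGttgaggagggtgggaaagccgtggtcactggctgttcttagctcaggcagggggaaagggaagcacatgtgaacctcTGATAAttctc
Hlf: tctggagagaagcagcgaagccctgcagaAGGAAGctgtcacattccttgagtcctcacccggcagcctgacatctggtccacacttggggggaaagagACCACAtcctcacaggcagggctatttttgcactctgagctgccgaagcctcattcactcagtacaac
Bach1: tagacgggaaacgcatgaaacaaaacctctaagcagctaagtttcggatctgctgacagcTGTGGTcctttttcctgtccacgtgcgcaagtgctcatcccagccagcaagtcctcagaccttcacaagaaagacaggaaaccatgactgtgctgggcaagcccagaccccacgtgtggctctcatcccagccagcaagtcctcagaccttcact

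These 8 sites differed in their matches. The Etv6 site held 4 ETS matches, 1 or more of them within the PU.1 letters GAGGAAGT, and the Hlf site held a RUNX and an ETS match, whereas the Ikzf2 and Bcl11a sites paired GATA with ETS.

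In distance, progenitor-only distal sites were close to other distal sites, and in width they were narrower than shared ones and close to mesoderm-only ones. Their median width was 97 bp (quartiles 68 and 139 bp, range 67 to 505 bp), and 25.7% (95% Wilson interval 24.7 to 26.7) were 67 or 68 bp wide, the smallest widths of the list, against 14.4% (13.6 to 15.3) of distal sites open in both stages (median 119 bp) and 22.4% (22 to 22.9) of mesoderm-only distal sites at the smallest widths of their own list (median 99 bp). Intervals of this kind cover counting error alone, since sites of 1 merged library set are not replicates. The median distance to the nearest gene start was 48665 bp (quartiles 20417 and 122356 bp), with medians of 47.4 kb for shared and 53.6 kb for mesoderm-only distal sites, all over 5 kb by definition. By distance, 632 sites lay 5 to 10 kb from a start, 1041 at 10 to 20 kb, 1790 at 20 to 50 kb, 1307 at 50 to 100 kb, 1805 at 100 to 500 kb and 250 beyond. In GENCODE vM1, 51.3% were intergenic, 43.9% intronic and 4.78% exonic, and 278 sites (4.07%) were within 1000 bp of an annotated transcript start that the count table does not use as a gene start. One of these is the exonic site of Plek, 9 bp from such a start. Within 5000 bp of such a start lay 841 sites (12.3%), which are distal only by the gene starts of the count table. Just inside the 5 kb limit lay sites of Clec4d (5003 bp), Amn1 (5016 bp) and H4c17 (5017 bp), and just outside it sites of Apon (4992 bp), Gstm3 (4991 bp) and Phlda3 (4980 bp).

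The sites lay among other open chromatin. A mesoderm peak had its midpoint within 5000 bp of 2288 sites (33.5%) and within 500 bp of 497 (7.28%), and the median distance to a 416B CTCF peak was 24403 bp. Some sites stood together: 1177 (17.2%) fell into 556 clusters with gaps of at most 10000 bp, the fullest with 5 sites over 18.5 kb at 4921509O07Rik and another with 4 sites over 13.9 kb at Bach2. The widest sites were a 505 bp exonic site of Mrpl15, a mitochondrial ribosomal protein gene, and a 471 bp site upstream of Slc4a7, a bicarbonate transporter gene. The share of HPC peaks that belong to the class ranged over the chromosomes from 15.9% (chromosome 19) to 28.1% (chromosome 14).

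ETS and RUNX letters were common in these sites. In 200 bp windows, 63.7% of sites (62.6 to 64.8) held an ETS match, against 24.5% of windows 1 kb to either side, 50.7% of distal sites open in both stages and 35.3% of mesoderm-only distal sites. RUNX matches stood in 37.7% (36.6 to 38.9), against 15.8% beside the sites, 23.7% of shared and 17.3% of mesoderm-only sites. The longer PU.1 letters GAGGAAGT, each of which contains an ETS match, stood in 14.8% (13.9 to 15.6) against 1.1%, 6.5% and 2.5%. An ETS match without PU.1 letters in the window stood in 48.9% (47.8 to 50.1) of all sites and 23.4% of flanks. The shares were 44.2% of shared and 32.8% of mesoderm-only sites. Windows with PU.1 letters stayed in these totals and counted as lacking such a match, which lowers the share of progenitor-only sites most. RUNX and ETS occurred together in 23.6% (22.6 to 24.6) of sites, in 3.93% of flanks, in 12.9% of shared and in 5.94% of mesoderm-only sites.

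GATA letters had a different profile. They stood in 24.2% (23.2 to 25.3) of progenitor-only sites, close to the 22.2% (21.5 to 22.9) of their flanks, and in larger shares of shared (31.1%) and mesoderm-only (34.6%) distal sites. TEAD letters (GGAATG) stood in 11.5% (10.8 to 12.3) of sites and 10.6% of flanks, against 21.7% of mesoderm-only sites. E-box letters (CAGCTG or CAGATG) stood in 38.5% against 21.8% of flanks, 34.2% of shared and 33.7% of mesoderm-only sites. AP-1 letters (TGANTCA) stood in 13% against 6.29% of flanks, 12.3% of shared and 8.73% of mesoderm-only sites, and MEIS letters (TGACAG) in 21.3% against 13.2%, 18.9% and 21.1%. The MARE letters TGCTGANTC, which overlap AP-1 letters where an A follows, stood in 2.74% of sites, 0.718% of flanks, 2.63% of shared and 1.5% of mesoderm-only sites. KLF letters (CCACACCC or CCCCGCCC) stood in 3.55%, against 1.88% of flanks, 7.51% of shared and 4.51% of mesoderm-only sites, and the CTCF core letters (AGGGGGC or AGGTGGC) in 6.17% against 4.57% of flanks, 7.84% of shared and 7.99% of mesoderm-only sites. The remaining letters were SOX (ACAATG or ACAAAG) at 30.9% against 26.9% of flanks, 26.4% of shared and 25% of mesoderm-only sites, and CEBP (TTGCNNAA) at 9.01% against 8.29%, 8.09% and 6.46%. Forkhead letters (TGTTTAC or TGTTTGC) stood at 7.06% against 6.61%, 7.29% and 9.73%, and GFI1 letters (AATCAC) at 5.74% against 8.78%, 6.56% and 7.97%. Base composition differed as well, with a median of 48.5% G or C in members, 43.0% in flanks, 51.5% in shared and 50.5% in mesoderm-only windows, and its part in the shares was not tested. Of all sites, 14.7% held no GATA, RUNX or ETS match, against 49.3% of flanks.

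**Figure D1:**
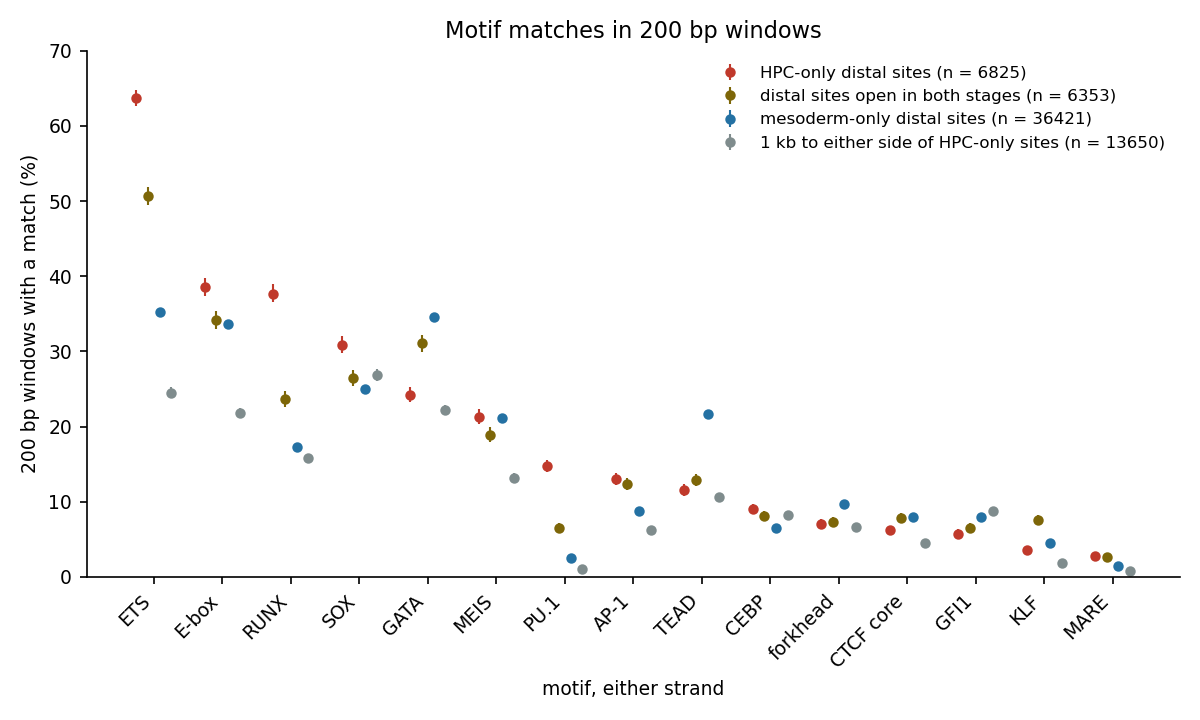
Percent of 200 bp windows with at least 1 match to each set of letters, for progenitor-only distal sites, their flanks at 1 kb, shared distal sites and mesoderm-only distal sites, with 95% Wilson intervals as bars. ETS stands at 63.7% in the progenitor-only sites and 24.5% in flanks, and GATA at 24.2% and 22.2%.

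Within the sites the matches gathered at the centre. In 20 bp bins, ETS matches had their centre just left of the midpoint in 14.3% of sites and near 490 bp to the right in 3.18%. For RUNX matches these shares were 6.67% and 1.93%. GATA matches reached 3.34% at the centre of progenitor-only sites and 5.31% at that of mesoderm-only sites. Wider sites carried more RUNX, E-box and ETS letters in the same 200 bp window. RUNX stood at 32.4% of sites up to 68 bp wide and 45.5% of those over 139 bp. ETS went from 57.9% to 67.3%, whereas GATA went from 24.6% to 22.6%.

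**Figure D2:**
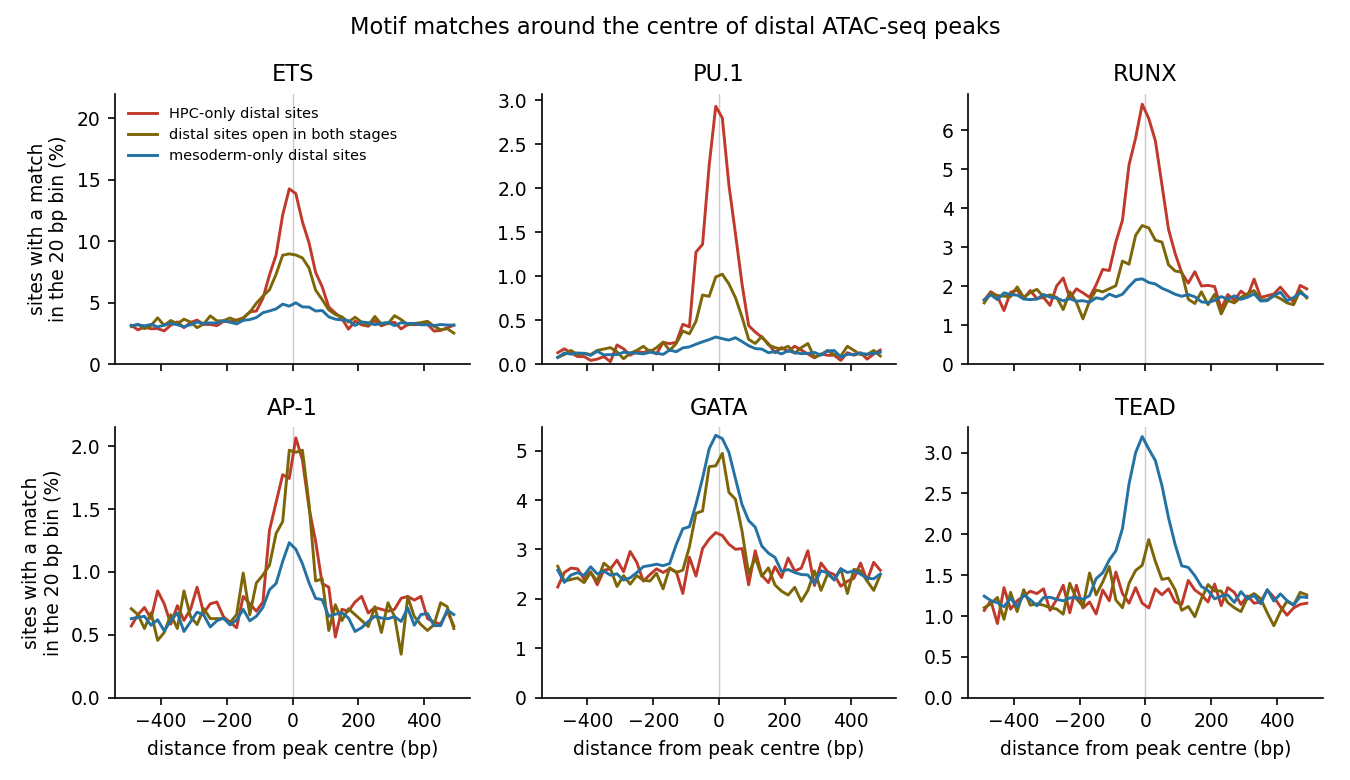
Percent of sites with a match in each 20 bp bin, against distance from the site midpoint in bp, for progenitor-only, shared and mesoderm-only distal sites. ETS and RUNX lines of the progenitor-only sites peak at the midpoint, at 14.3% and 6.67%, and fall to 3.18% and 1.93% near 490 bp.

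The 6825 sites had 4211 nearest genes, of which 2752 had a single site and 68 had 6 or more, up to 14. The nearest gene need not be the gene that holds a site. Of 3215 sites inside a gene span, 1116 (34.7%) were nearest to the start of another gene. A gene was called in HPCs against mesoderm at an adjusted p under 0.05 in edgeR's quasi-likelihood test and an absolute log2 fold change over 1. Of the 2425 nearest genes tested, 426 (17.6%) were called higher in HPCs, where 10.8% of all 12899 genes tested were, and 389 (16%) were called lower, where 12.5% of all genes were. The median log2 fold change of nearest genes was 0.00 and that of all genes -0.01, so both tails were fuller than in all genes while the centre was the same. Genes nearest to a shared distal site were close to these shares, with 16.3% of 2363 called higher and 17.1% lower. Nearest genes also stood at higher levels, with median CPM of 3.12, 2.24, 2.13 and 2.47 in HPCs (B9.3, B9.3-2, C6.1, then C8.1). All genes tested had 1.5, 1.38, 1.33 and 1.35 there. The part of level in the shares called was not tested. Fewer cells of a type and less RNA per cell cannot be told apart in such bulk libraries, and p-values measure the spread between these libraries, of which B9.3 and B9.3-2 HPCs share a clone. By site, 751 (11.0%) had a nearest gene called higher, 710 (10.4%) one called lower, 2554 one tested and not called and 2810 one not tested.

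Distance sorted the 2 directions. Where the closest site was 5 to 10 kb from the start, 26.0% of 362 genes were called higher and 13.8% lower. At 20 to 50 kb these shares were 17.1% and 15.1% of 750 genes, and beyond 100 kb they were 9.97% and 22.2% of 361 genes. Genes of shared or mesoderm-only distal sites were not sorted by distance, so this order is not shown to be particular to progenitor-only sites. Genes with a site within their own span were called higher in 21.1% and lower in 18.2%, against 14% and 13.9% of those with none. Nearest genes that were not also nearest to a mesoderm-only distal site were called higher in 19.5% of 421 and lower in 8.08%, whereas those near both kinds of site were called higher in 17.2% of 2004 and lower in 17.7%. Genes nearest only to mesoderm-only sites were called higher in 10.8% and lower in 17.7%. Genes nearest to neither kind of site were called higher in 8.33% and lower in 8.09% of 6541. Their share called lower was thus close to the 8.08% above.

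**Figure D3:**
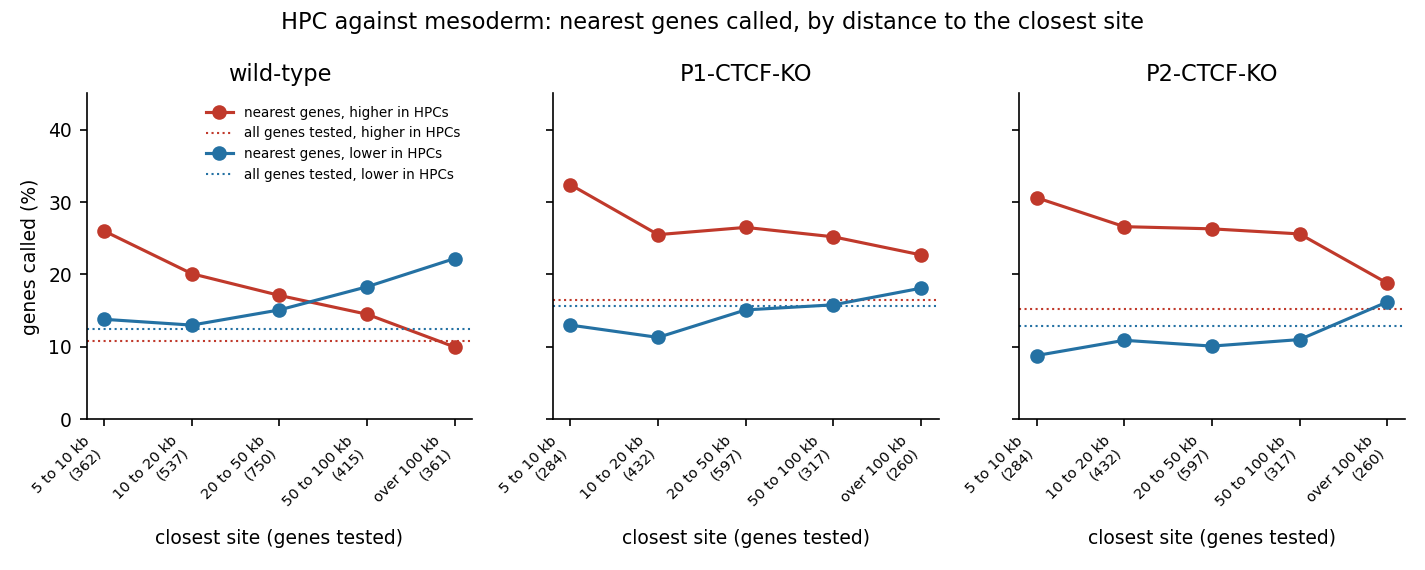
Percent of tested nearest genes called higher or lower in HPCs against mesoderm, by distance of the closest site, in wild-type cells and in each knockout, with the share of all genes tested as dotted lines. In wild-type cells the share called higher goes from 26.0% at 5 to 10 kb to 9.97% beyond 100 kb, and the share called lower from 13.8% to 22.2%.

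For genes called higher, the number of sites at a gene gave no such order. Called higher were 15.7% of genes with 1 site, 21.6% with 2, 17.5% with 3, 24.6% with 4 to 5 and 13.5% of the 37 genes with 6 or more. Called lower were 15.5% with 1 site, 14.9% with 2, 18.5% with 3, 19% with 4 to 5 and 32.4% of those 37 genes. The median log2 fold change of the 37 was -0.26. Sites next to genes called higher held GATA letters more often, in 30.5% (27.3 to 33.9), than sites next to genes called lower, in 21% (18.2 to 24.1), or next to genes tested and not called, in 23.7%. ETS, RUNX and PU.1 letters showed no such difference, with ETS at 65.2% (61.8 to 68.6) and 66.1% (62.5 to 69.4), and these intervals overlapped.

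Of 40 hematopoietic transcription factors on the list, 15 were nearest to 35 sites, where 4211 of the 25146 genes of the count table were nearest genes. Of the 15, 7 rose in HPCs (Runx1, Tal1, Lmo2, Ikzf2, Meis1, Cbfa2t3 and Zfpm1) and Bach2 fell, with a median log2 fold change of 1.55. Of the 21 other list genes tested, 11 were called higher and 1 lower. Runx1, the factor required for the endothelial-to-hematopoietic transition, had 4 sites, 6989 and 38878 bp downstream of its start in introns, and 41302 and 48168 bp upstream of it. Its level was 1.21 and 0.811 CPM in the undifferentiated libraries, 5.41, 17.0 and 20.8 in mesoderm (B9.3, then C6.1, then C8.1) and 125, 101, 117 and 182 in HPCs (B9.3, B9.3-2, C6.1, then C8.1). The 3 stages did not overlap, and HPCs exceeded mesoderm by a log2 fold change of 3.19 (SE 0.43, adjusted p = 0.00026).

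Cbfa2t3, a corepressor that works with Tal1, had a site in its intron and one 21.5 kb upstream. It was at 0.133 and 0.173 CPM in undifferentiated cells, 4.94, 4.58 and 4.52 in mesoderm and 32.1, 30.5, 23.9 and 33 in HPCs, with no overlap between stages and a log2 fold change of 2.67 (SE 0.21, adjusted p = 1.5e-05). Lmo2, the bridging partner of Tal1, went from 1.65, 1.31 and 1.29 CPM in mesoderm to 9.03, 5.52, 5.45 and 7.85 in HPCs. Tal1 itself has its single site in an exon, 6.79 kb downstream of its start, and rose by 1.94 on the log2 scale (SE 0.21). The other factors rose by 1.55 (Ikzf2), 1.65 (Zfpm1, the GATA partner FOG1) and 3.17 (Meis1), and Bach2, a transcriptional repressor known from B and T cells, fell by 1.75.

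Platelet and red cell genes near these sites were called higher without exception. All 6 megakaryocyte and platelet genes that were nearest to a site rose in HPCs, as did 12 of the 14 others tested, and the same held for 4 of 4 erythroid nearest genes and 21 of 21 others. Itgb3, the partner of CD41 on platelets, stood at 0.314, 0 and 0.807 CPM in mesoderm and at 153, 59.6, 70.2 and 151 in HPCs, a log2 fold change of 7.96 (SE 0.64, adjusted p = 1.6e-05). The other platelet genes were Vwf (von Willebrand factor), Mmrn1 (multimerin), Gp9 (a subunit of the von Willebrand receptor), Plek (pleckstrin) and Rab27b (granule secretion). Fitted log2 fold changes were 5.51 for Vwf, 7.14 for Rab27b and 8.15 for Plek. Mmrn1 had only 3 mesoderm counts, so its ratio of counts per scaled depth, 113 (95% interval 38.3 to 551, counting error alone), was wide, and Gp9 had none, which makes it at least 9.44-fold higher against a floor of 3 counts over the group. The embryonic globin Hbb-y had a count ratio of 329 (58.6 to 13027), and Car2 (carbonic anhydrase) and Cpox (heme synthesis) rose by 2.66 and 2.82 on the log2 scale.

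Of 11 myeloid and pan-leukocyte genes nearest to a site, 8 were tested and 6 rose (Inpp5d, Itga4, Ptpn6, Lcp2, Fyb and Vav1, which act in integrin and receptor signalling), as did 6 of the 7 others tested. Cytokine and growth factor receptors were a contrast as a list, near a site or not. Of the 6 others tested, 0 were called higher and 2 lower. Of 6 near sites, 5 were tested and none was called higher. Among these, Cxcr4, the receptor of Cxcl12, fell by 5.03 on the log2 scale. It stood at 1.33, 6.55 and 5.81 CPM in mesoderm and at 0, 0.517, 0.133 and 0 in HPCs.

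Endothelial genes near the sites were not called higher in wild-type HPCs. Of 7, 6 were tested and 4 fell (Kdr, Cdh5, Eng and Ets1), as did 7 of 13 others. Kdr, the gene of the Flk1 receptor by which mesoderm was sorted, has sites 142603 and 151931 bp downstream and stood at 51.1, 36.2 and 22.7 CPM in mesoderm and 15, 6.72, 3.72 and 9.98 in HPCs, a log2 fold change of -2.04 (SE 0.39, adjusted p = 0.0027). Cdh5, VE-cadherin, stood at 37.1, 0.491 and 3.47 CPM in mesoderm and at 1.16, 3.28, 1.20 and 0.897 in HPCs, so its stages overlapped and its fall rested on clone B9.3, the library with the high endothelial sum. Without that library the log2 fold change of Cdh5 was -0.54 (adjusted p = 0.58), that of Eng -0.81 and that of Ets1 -0.61, and none was called. Calls of the 3 genes were also lost without some single HPC libraries, at adjusted p of 0.05 to 0.086 in edgeR. Of 2 mesoderm genes near a site, Wnt5a was tested and fell by 2.17, and 13 of the 14 others tested were also called lower. Of 4 pluripotency genes near a site, all tested, 1 was called. This was Klf4, which fell by 2.75, a call lost without mesoderm B9.3 (-2.18, adjusted p = 0.092). Of the 8 other pluripotency genes tested, 2 were called lower. No nearest gene of the cardiac and smooth muscle list (1 of 2 tested) or of the fibroblast list (3 of 4 tested) was called.

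**Figure D4:**
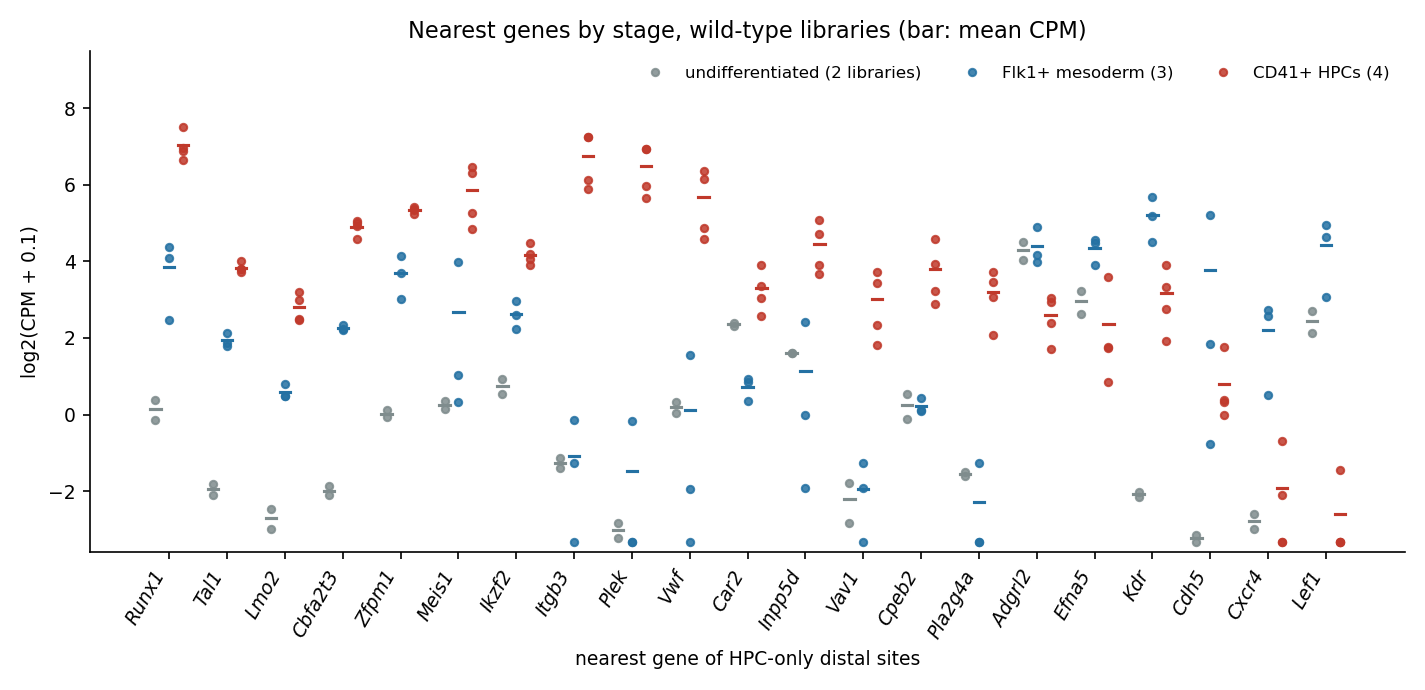
Level of nearest genes (x axis) on a log2(CPM + 0.1) scale (y axis), 1 point per wild-type library, by stage, with a bar at the mean CPM. Itgb3 and Plek stand apart in HPCs, Runx1 and Cbfa2t3 climb over the 3 stages, and Cdh5 has 1 mesoderm library, B9.3, far above the others.

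Of the genes with the most sites, some rose, some fell and others were not called or not tested. Adgrl2 (latrophilin 2, an adhesion receptor) had 14 sites and stood at 29.9, 15.7 and 18.0 CPM in mesoderm and 7.52, 5.17, 3.19 and 8.19 in HPCs, a fall of 1.81 (SE 0.32). Efna5 (ephrin A5, a guidance ligand), with 12 sites, fell by 1.95. In the other direction, Pla2g4a, the cytosolic phospholipase A2 that releases arachidonic acid, had 10 sites, 5 of them within the gene, and went from 0.314, 0 and 0 CPM to 10.9, 4.14, 8.37 and 13.2 (log2 fold change 6.15, SE 0.68). Cpeb2, a regulator of mRNA polyadenylation and translation, had 10 sites upstream, from 5441 to 263823 bp away, and went from 1.25, 0.982 and 0.969 CPM to 15.3, 7.24, 9.3 and 23.9 (3.69, SE 0.46).

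Of the 15 genes with the most sites, Actr3, a subunit of the Arp2/3 actin complex, also rose (1.25), and Sgip1 (endocytosis) and Btbd3 fell by 2.31 and 1.60. Rap2a (0.84) and Kctd3 (-0.08) were tested and not called, and Gm3636, Gm30214, Vmn2r-ps159, Mir181a-1 and Gm3317 had too few counts to be tested. Adgrl4, an adhesion receptor of endothelium with 9 sites, had 9.17, 0 and 0.161 CPM in mesoderm and 1.39, 2.59, 0.930 and 1.91 in HPCs. Its log2 fold change was -0.99 (adjusted p = 0.52) with the B9.3 mesoderm library and 3.91 (adjusted p = 0.0051) without it.

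Among the remaining nearest genes whose libraries did not overlap, those with the smallest adjusted p were higher in HPCs for Nmnat3 (NAD synthesis), Adgrg1 (an adhesion receptor, GPR56), Smox (spermine oxidase), Dapp1 (an adaptor of phosphoinositide signalling), Adcy9 (adenylyl cyclase), Ell2 (transcription elongation), Rgs10 (G protein signalling) and Atp8a1 (a phospholipid flippase). Nmnat3 stood at 0.157, 0.164 and 0.0807 CPM in mesoderm and 20.6, 22.2, 30.4 and 28.4 in HPCs, and both of its sites lie within the gene. Fitted log2 fold changes of the 8 ran from 3.89 (Atp8a1) to 7.59 (Rgs10). On the lower side were Rspo3 (a secreted Wnt agonist), Lrp5 (a Wnt co-receptor), Lef1 (a nuclear factor of the same pathway), Zfp423, Zfp703, Amot (angiomotin), Map4k4 and Tgif1. Lef1 had 8.23, 30.9 and 24.8 CPM in mesoderm and 2 counts in all HPC libraries together, a count ratio of 0.00337 (0.000407 to 0.0122). Of the genes of the 10 widest sites, Pik3cb, the platelet phosphoinositide 3-kinase subunit, rose by 3.14 and Slc4a7 fell by 1.19 (-0.99 without HPC library B9.3-2, below the fold limit).

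At the earlier step the undifferentiated arm is 1 biological sample measured as 2 technical replicates, so its p-values count as 2 what is 1 sample. In mesoderm against undifferentiated cells, 455 of 2425 (18.8%) were called higher, where 10.7% of all genes tested were, and 292 (12%) lower, where 13.7% were. Genes nearest to a shared distal site were again close, at 18.5% and 12.8%. The median log2 fold change of nearest genes was 0.13, and that of all genes -0.18. Here the number of sites gave an order, from 15% called higher with 1 site over 23.6% with 2 and 24.0% with 3 to 29.4% with 4 to 5 and 40.5% of the 37 genes with 6 or more. Genes with 3 or more sites had median CPM of 2.73 and 2.5 in undifferentiated libraries, against 2.1 and 1.97 over all nearest genes. In mesoderm (B9.3, C6.1, then C8.1) they had 4.94, 3.44 and 4.04, against 2.67, 2.13 and 2.34. The part of level in this order was not tested. Runx1 (3.82), Tal1 (4.47), Lmo2 (4.50) and Cbfa2t3 (4.93) rose at both steps, whereas Itgb3 (0.43) and Vwf (0.12) were not called at the first. With the undifferentiated cells counted as 1 sample, by leaving out technical replicate 1 or 2 and letting the other groups supply the spread, the genes called higher numbered 190 and 174, and those called lower 89 and 113. Ribosomal RNA depletion differs between these groups, and its part in the counts was not tested.

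The step from mesoderm to HPCs was also measured in the CTCF site knockouts, in libraries not used above, with libraries of 1 clone fitted as separate ones. In P1-CTCF-KO, 499 of 1890 nearest genes tested (26.4%) were called higher, where 16.5% of all genes tested were, and 273 (14.4%) lower, where 15.6% were. In P2-CTCF-KO, 489 (25.9%) were called higher against 15.2% of all genes, and 209 (11.1%) lower against 12.9%. Medians were 0.18 and 0.37 on the log2 scale, with -0.06 and 0.01 for all genes. Genes nearest to a shared distal site were called higher in 24.5% and 24.3%. Genes whose closest site was within 10 kb were called higher in 32.4% and 30.6%, and those beyond 100 kb in 22.7% and 18.8%. Both shares beyond 100 kb stayed above those of all genes tested, whereas in wild-type cells 9.97% stood beside 10.8% of all genes. Calls in wild-type cells were looked up in the knockouts for nearest genes only. The same was not counted over all genes called, so these counts do not set nearest genes apart. Of the 426 genes called higher in wild-type cells, 405 were tested in the knockouts. Of those, 367 were called higher in P1-CTCF-KO and 338 in P2-CTCF-KO, and none was called lower in either. Of the 389 called lower, 318 were tested, with 202 called lower in P1-CTCF-KO and 144 in P2-CTCF-KO, and Cdh5 alone was called higher, in P2-CTCF-KO (log2 fold change 4.86, SE 1.52, adjusted p = 0.023). Cdh5 stood there at 0.0590, 0.0798 and 0.251 CPM in mesoderm and 0.576, 0.984, 14.2, 1.30 and 2.85 in HPCs, with the highest value in library D2.1, whose endothelial sum was 136 CPM against 19.9 to 57. Of 6 endothelial nearest genes tested in P2-CTCF-KO, Tek, Flt1 and Cdh5 were called higher and Kdr lower. Of the 10 other endothelial genes tested there, 5 were called higher and 1 lower. In P1-CTCF-KO, 0 of 6 endothelial nearest genes were called higher and Kdr was called lower, with 0 and 4 of 10 others.

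Between genotypes at 1 stage, edgeR called 3 nearest genes in all. In HPCs, 0 of 1670 nearest genes were called in P2-CTCF-KO or P1-CTCF-KO against wild-type cells by edgeR and by DESeq2, as in all genes (0 of 7422, 0% in each direction), with 40 and 46 nearest genes at an unadjusted p under 0.05 (145 and 260 of all). In mesoderm, P1-CTCF-KO gave 0 called genes of 8778 (0% in each direction, 41 nearest genes and 168 of all at an unadjusted p under 0.05, DESeq2 0), and P2-CTCF-KO gave 0% higher and 3 genes lower (0.0342% of all) by edgeR. All 3 were nearest to a progenitor-only site, and also to a shared distal site: Ikzf2, an Ikaros family factor, with 3 sites, Cbfa2t3 with 2, and Prkar2b, a regulatory subunit of protein kinase A, with 3. Cbfa2t3 stood at 2.62, 2.46 and 2.38 CPM in wild-type mesoderm, scaled within this comparison, at 2.12, 1.32 and 2.01 in P1-CTCF-KO and at 0.253, 0.340 and 0.484 in P2-CTCF-KO. Its difference in P2-CTCF-KO was -2.78 (SE 0.31, adjusted p = 0.022), and those of Ikzf2 and Prkar2b were -2.52 (SE 0.31, adjusted p = 0.026) and -2.30 (SE 0.31, adjusted p = 0.037).

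The P2-CTCF-KO libraries of the 3 genes lay below all wild-type mesoderm libraries. In HPCs they overlapped, with differences of -0.15 (Cbfa2t3), 0.02 (Ikzf2) and -0.28 (Prkar2b). DESeq2 called 82 nearest genes and 169 of all genes in P2-CTCF-KO mesoderm, and the median log2 difference there was -0.20 over nearest genes, -0.18 over genes nearest to a shared distal site and 0.01 over all genes. At an unadjusted p under 0.05 stood 458 of 1809 nearest genes (25.3%) and 1408 of 8778 genes (16%). Tested as a difference between the knockout and wild-type stage effects over 21 libraries, Cbfa2t3 (2.64, SE 0.34, adjusted p = 0.0021) and Ikzf2 (2.54, SE 0.38, adjusted p = 0.0079) were the only calls of 9170 genes in P2-CTCF-KO, with 643 of all and 248 of 1955 nearest genes (12.7%) at an unadjusted p under 0.05. There were 0 in P1-CTCF-KO (306 at an unadjusted p under 0.05, 69 of them nearest genes). The stage effect of Cdh5 differed by 8.11 (SE 2.04, adjusted p = 0.29) in P2-CTCF-KO, which was not called. Beside these mesoderm values, the endothelial sum of wild-type clone B9.3 was the highest of the wild-type libraries, and its part in the genotype differences was not tested.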

How the data were processed

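Gene counts of 23 RNA libraries were deposited as raw counts over exons and introns, made by the authors with STAR (mm9), duplicate removal and featureCounts. The gene annotation and strand setting of the counts were not given in the sources used here. Peak positions, without heights, were deposited as MACS2 calls on merged reads, with ATAC-seq inserts under 100 bp kept. Sites were assigned to the nearest of 25011 single-locus gene starts. The members and lists were chosen with earlier results of these data known. Counts were tested with edgeR 4.0.16 (R 4.3.3; TMM, filterByExpr with a minimum count of 10, quasi-likelihood test, Benjamini-Hochberg adjustment over all genes tested), and DESeq2 1.42.0 was an alternative. Wild-type cells were fitted over 9 libraries, and each other comparison over its own. Tested on simulated data for HPCs against mesoderm (12899 genes), 8.75%, 50% and 82.5% of genes changed by 1, 2 and 3 on the log2 scale were called. Named were the 15 nearest genes with the most sites, list genes called, the 8 higher and 8 lower remaining genes with the smallest adjusted p and libraries apart, and the genes of the 10 widest sites. Sequences and transcript starts came from NCBIM37 with GENCODE vM1. Same-numbered clones did not deviate together in every pair (correlations -0.09 to 0.22) and were not used as pairs. Replicate libraries differed by more than sampling noise (chi-square per gene 5.13 to 123). The result of 1 named gene is not reported here.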

Additional observations from a re-analysis of the deposited data

Results flagged for a closer look

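A library stood apart from the others of its group for 30 of 118 gene and group combinations examined, where chance flags about 1 in 20 groups of independent values, which these genes are not. In wild-type HPCs these were Cdh5 in B9.3-2 (3.28 CPM) and, in B9.3, Efna5 (12 CPM) and Map4k4 (12.4 CPM). In P2-CTCF-KO HPCs, library D10.1 was highest for 15 genes: Itgb3 (179 CPM), Plek (108), Vwf (73.8), Meis1 (71), Rab27b (60.5), Inpp5d (34.1), Fyb (33.1), Dapp1 (31.9), Pik3cb (31.6), Rgs10 (22.4), Mmrn1 (21.5), Lcp2 (14.3), Vav1 (11.6), Pla2g4a (9.79) and Gp9 (1.56). Its summed level of the 22 megakaryocyte and platelet genes was 841 CPM, against 92.8 to 157 in the other libraries of that group.

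Library D2.1 of the same group was highest for 12 genes, of which Cdh5, Eng and Ets1 are on the endothelial list: Map4k4 (25.5 CPM), Adgrl2 (17.4), Ets1 (16.7), Cdh5 (14.2), Adgrl4 (8.15), Zfp423 (8.1), Lrp5 (5.32), Rspo3 (5.21), Lef1 (4.76), Eng (3.4), Sgip1 (1.93) and Tgif1 (0.736). The part of these libraries in the P2-CTCF-KO counts was not tested other than by leaving each out.

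The step from mesoderm to HPCs differed between P2-CTCF-KO and wild-type cells for Cbfa2t3 (by 2.64 on the log2 scale) and Ikzf2 (by 2.54), in edgeR's test of the genotype by stage term, which was added after the data were seen.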

How the results depend on the processing

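Over all alternatives, 85 values of gene counts, site counts and match shares stayed near the reported ones and 18 moved, by over 1.5 times for counts. With wider peaks alone, 2637 sites were left, with 218 genes called higher and 188 lower in HPCs. DESeq2 called 193 genes lower in mesoderm against undifferentiated cells, and 82 in mesoderm of P2-CTCF-KO against wild-type cells, where edgeR called 3. Match shares over flanks moved with the window: in 100 bp windows GATA 1.2, RUNX 3.14, ETS 3.65, PU.1 21.5 and AP-1 2.65 times, and in the peak as called RUNX 2.94, ETS 3.39, PU.1 17.9 and AP-1 2.54. Adgrl4 turned to 3.91 without wild-type mesoderm B9.3. Leaving out 1 library gave 361 to 456 higher and 318 to 454 lower genes for HPCs against mesoderm, 419 to 480 higher in P1-CTCF-KO and 424 to 528 in P2-CTCF-KO. For mesoderm against undifferentiated cells it gave 174 to 455 higher and 89 to 254 lower, with 190 and 89 without technical replicate 1 and 174 and 113 without technical replicate 2. With the clone as a replicate block, 317 genes were higher and 267 lower in wild-type HPCs, 497 higher in P1-CTCF-KO and 383 in P2-CTCF-KO. Of named genes, 734 results and settings kept their call, 14 lost it (Cdh5, Eng, Ets1, Klf4 and Slc4a7) and 1 reversed. The distance order held in 12 alternatives, with 19.4% to 27.8% higher at 5 to 10 kb and 8.01% to 13.4% beyond 100 kb. Gene starts of rows with several loci were not run, since such rows have no single start. The cause of these changes was not tested. Depth limits low genes most, and peaks have no replicate.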
